A study of Mus musculus with 2 samples.

Results

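Mir744 and Mir652 are microRNA genes that each lie alone in an intron of a protein-coding gene. Both were among the most abundant microRNA genes of mouse cortex here, as counted from uniquely mapped reads. They are 2 of the 2202 microRNA genes counted, and were chosen by mean own-strand level, as little-studied genes among the 12 highest, so their levels and ranks describe the choice and were not tested. Small RNA was sequenced from left cerebral cortex, and the mice were males of B6CASTF1/J, an F1 hybrid of C57BL/6J and CAST, aged 36 days. Replicate 1 is labelled animal 3 and replicate 2 animal 4, with no treatment, and both carry the same donor identifier. The 2 libraries form 1 group and the design holds no contrast between conditions. The values below place both genes among the other microRNA genes and set the libraries beside each other. Host transcripts were not measured.

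A microRNA is cut as a hairpin from a longer transcript by the nuclear enzyme Drosha and trimmed in the cytoplasm by Dicer. An arm of the hairpin is then loaded into an Argonaute protein and guides it to messenger RNAs, mostly through bases 2 to 8 of the arm, the seed. A microRNA in an intron on its host's strand can be made from the host's own primary transcript. Map2k4, the host of Mir744, encodes a kinase that activates the stress kinases JNK and p38. Tmem164, the host of Mir652, encodes a membrane protein that in human cells was described as an acyltransferase for ether phospholipids. Mir652 is X-linked, so a male carries 1 copy of it.

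The mature arms are shown because they decide which reads can be assigned to these genes and which seeds the reads stand for. Sequences are from RefSeq (GRCm38.p6, the assembly that mm10 names), with the seed in capitals.
miR-744-5p: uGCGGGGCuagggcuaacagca
miR-744-3p: cUGUUGCCacuaaccucaaccu
miR-652-5p: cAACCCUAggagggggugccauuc
miR-652-3p: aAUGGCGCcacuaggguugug
None of these 4 seeds was found in a mature sequence of another gene among the 1738 listed. With the seed shortened to bases 2 to 7, miR-744-5p matched 1 other mature sequence, miR-7036a-5p, and the other arms matched none. An unshared seed was common, since 72.5% of the 1674 distinct mature sequences had one.

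The genes directly beside Mir744 in mean level were of another kind. Mirlet7d and Mirlet7e, directly above and below it in mean level, belong to the let-7 family, whose members accumulate as neurons mature. Their 5p arms are shown for the seed, which is the same in both.
let-7d-5p: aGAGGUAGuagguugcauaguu
let-7e-5p: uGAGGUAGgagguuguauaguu
This seed occurred in 12 other genes in the case of either arm. Mir125a, directly below Mir652, also has a shared seed, with 5 other genes, whereas Mir433, directly above Mir652, shares none. Of the 20 genes with the highest mean level, 18 matched listed mature sequences. By the arms listed, 9 of the 18 shared no seed with another gene. These were Mir744, Mir652, Mir139, Mir127, Mir433, Mir770, Mir382, Mir23b and Mir126a. Of Mir23b only the 5p arm was listed and of Mir126a only the 3p arm. A shared seed in the unlisted arm would be missed, and the Mir23b hairpin shares a stretch of 20 bases with that of Mir23a. The count may therefore be too high.

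Each arm lies in a hairpin, shown with both arms in capitals to place them on the precursor.
Mir744: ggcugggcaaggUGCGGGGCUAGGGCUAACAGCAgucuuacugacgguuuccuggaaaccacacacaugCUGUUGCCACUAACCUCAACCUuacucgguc
Mir652: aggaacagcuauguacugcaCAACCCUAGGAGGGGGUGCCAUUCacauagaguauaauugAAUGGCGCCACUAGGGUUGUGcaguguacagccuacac
Mir744 (ENSMUSG00000076460.1) lies at chr11:65734733-65734832 on the minus strand and Mir652 (ENSMUSG00000076011.1) at chrX:142739000-142739097 on the plus strand (mm10). The RefSeq and GENCODE M21 hairpins were the same in span and in bases. The arms are 35 bases apart in Mir744 and 16 bases apart in Mir652, so the segment between the arms is longer in Mir744. In the fold predicted by RNAfold, 16 bases of each Mir744 arm paired with the other arm, against 18 bases of each Mir652 arm.

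Neither hairpin shares a stretch of 20 or more bases with another microRNA gene. The longest stretch that Mir744 shares with a microRNA hairpin at another place, on either strand, is 15 bases, with Mir1191, and only 7 of them fall in the 5p arm. Mir652 shares 14 bases with the opposite strand of Mir1906-1 and Mir1906-2, and 13 of them fall in its 5p arm. Mir1191 and Mir1906-2 had 0 counts in both libraries, and Mir1906-1 had 2 counts in replicate 1 and 0 in replicate 2. Among the 20 most abundant genes, 8 had a longer shared stretch than Mir744 and 9 a longer one than Mir652. Over the 516 genes with 10 or more counts, 17.8% shared 20 or more bases with another locus. Each of the 4 mature arms was found in 1 microRNA locus and, among 141767 GENCODE transcripts, in no transcript of another gene on either strand. Reads of several loci are left out of the deposited gene counts, and these searches covered microRNA hairpins and transcripts, not the whole genome.

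**Figure D1:**
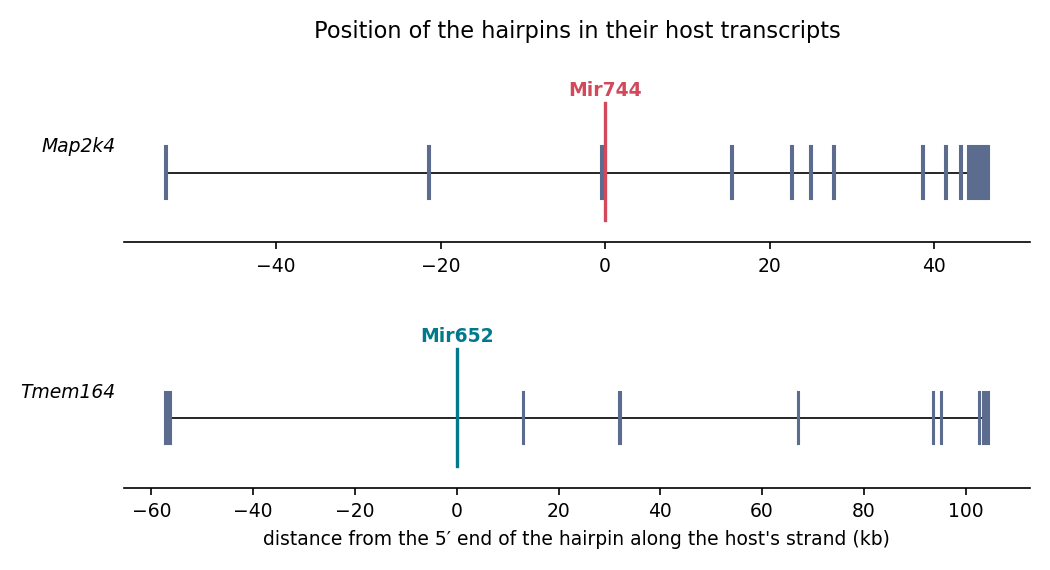
Exons (blue boxes) of the Map2k4 transcript with 11 exons and the Tmem164 transcript with 9 exons, against distance from the hairpin's 5′ end along the host's strand (kb); boxes narrower than 0.25 kb are drawn at that width. Mir744 sits 359 bases after an exon, while Mir652 lies far from the exons on both sides.

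The 2 hairpins sit in different settings within their introns. Map2k4 spans chr11:65688243-65788297 on the minus strand, and all 5 of its transcripts that span Mir744 hold it in an intron. In 3 of them the intron is 15588 bases long and the hairpin begins 359 bases after the upstream exon, with 15129 bases left to the next one. In the other 2 transcripts that exon is absent and the intron is 36665 bases long. Tmem164 spans chrX:142681406-142843494 on the plus strand, and all 7 transcripts that span Mir652 hold it in an intron of 69085 to 89410 bases. The hairpin lies 56050 to 57443 bases after the upstream exon and 12937 to 31869 bases before the downstream one. Neither hairpin reaches a splice site. Each is the 1 microRNA gene of its host, and none lies within 10 kb. The nearest other microRNA gene is 666925 bases from Mir744 and 223505 bases from Mir652, and both of those neighbours had 0 counts.

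Levels are given as CPM, the reads on the gene's own strand scaled to a library total of 1000000 such reads. A mature microRNA read covers the whole molecule, so no gene length enters. Reads of the 5p and the 3p arm are summed in each gene's count, so the arms cannot be told apart. The own-strand counts came to 4273791 in replicate 1 and 4010274 in replicate 2, or 36.0% and 34.8% of all reads. Intervals below are exact binomial 95% intervals and cover counting error only. Of a neuronal marker list, led by Mir132, which neuronal activity induces, 6 of 9 genes reached 10 CPM in both libraries, against 300 of all 2202 genes. A striated muscle list had 1 of 8 genes at that level. The neuronal genes below it were Mir124a-1, Mir124a-2 and Mir124a-3. Reads with several mapping places are left out of these counts. A low count of a gene with copies elsewhere, in either list, therefore cannot be read as low expression.

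Mir744 had 136049 counts in replicate 1 and 142694 in replicate 2, which is 31833 CPM (31667 to 32000) and 35582 CPM (35401 to 35764). Its mean was 33708 ± 2651 CPM (SD, n = 2). The gene took place 8 in replicate 1, place 7 in replicate 2 and place 8 by the mean. Mir744 reads thus made up 3.18% and 3.56% of the own-strand counts in replicates 1 and 2. The spread between libraries, a coefficient of variation of 7.86%, was well above the counting error of 0.271% and 0.265% in replicates 1 and 2.

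Mir652 had 42335 counts in replicate 1 and 70512 in replicate 2, which is 9906 CPM (9812 to 10000) and 17583 CPM (17454 to 17712). Its mean was 13744 ± 5429 CPM (SD, n = 2), with a coefficient of variation of 39.5%. The intervals of the libraries do not overlap, and replicate 2 is the high one. Mir652 took place 23 in replicate 1 and place 10 in replicate 2, so its place of 12 by the mean rests on replicate 2. It stood just inside the 12 genes from which the choice was made. Mir125a, just outside, reached 17043 CPM in replicate 1 and 9714 CPM in replicate 2. Its mean was 13379 ± 5182 CPM (SD, n = 2). The order of Mir652 and Mir125a was therefore opposite in the libraries.

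**Figure D2:**
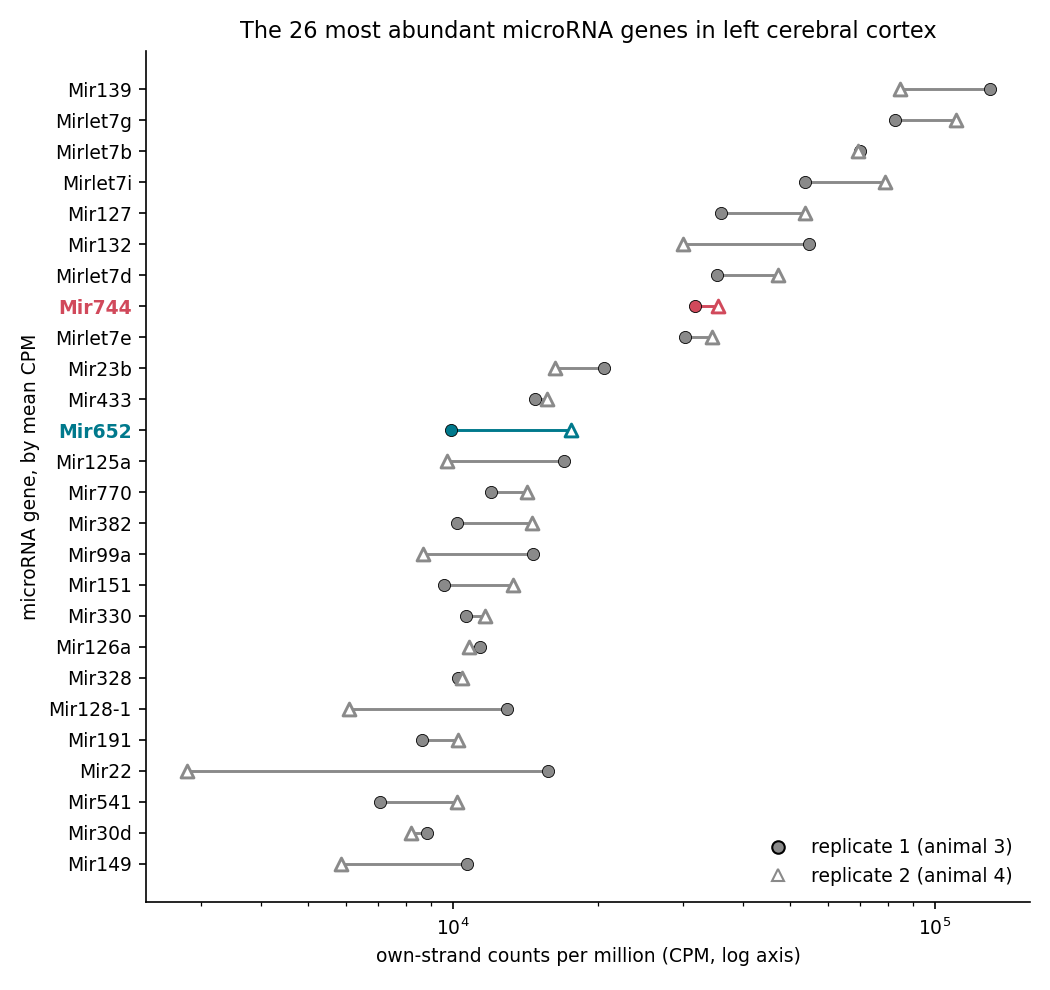
Own-strand CPM (log axis) of the 26 microRNA genes with the highest means, with a filled circle for replicate 1 and an open triangle for replicate 2. The Mir744 points lie close together at 31833 and 35582 CPM, and the Mir652 points lie apart at 9906 and 17583 CPM.

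Together both genes took 4.17% of the own-strand counts in replicate 1 and 5.32% in replicate 2, a mean of 4.75% ± 0.808 (SD, n = 2). Set against all reads, unmapped and multi-mapped ones included, Mir744 made up 1.14% in replicate 1 and 1.24% in replicate 2. For Mir652 these shares were 0.356% in replicate 1 and 0.611% in replicate 2. Mir744 was the more abundant in both libraries, with 3.21 times the counts of Mir652 in replicate 1 (3.18 to 3.25) and 2.02 times in replicate 2 (2.01 to 2.04). The ratio averaged 2.62 ± 0.841 (SD, n = 2), and it differed between the libraries by more than counting error.

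All reads at both genes were on their own strand. The opposite-strand count was 0 in both libraries, and the highest share that this allows, for Mir652 in replicate 1, is 0.00709% of its own-strand reads. Counting without strand gave the same numbers for both genes. Of the 20 most abundant genes, 17 kept exactly their counts in this way. Mirlet7e and Mir126a, the endothelial microRNA of the Egfl7 gene, lost over 90% of theirs.

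The genes with levels most like Mir744, by distance on the log2 CPM scale over the 2 libraries and among 635 other genes, were Mirlet7e, Mirlet7d and Mir127. Mirlet7e, in an intron of Spaca6, was nearest, at a distance of 0.08. It stood at 30268 CPM in replicate 1 and at 34522 CPM in replicate 2, so Mir744 stood slightly above it within each library while their ranges overlap. Mirlet7d had 35382 and 47302 CPM in replicates 1 and 2, above Mir744 within each library and overlapping its range. Mir127, an imprinted microRNA antisense to Rtl1, lay at a distance of 0.62. Overlapping ranges follow largely from the choice of these genes by distance.

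Nearest to Mir652 were Mir382, Mir151 and Mir770. Mir382, of the imprinted Dlk1-Dio3 domain, lay at a distance of 0.27, with 10200 CPM in replicate 1 and 14575 in replicate 2. Mir151, in an intron of Ptk2, the focal adhesion kinase gene, had 9564 and 13299 CPM in replicates 1 and 2. Mir770, in the maternally expressed Meg3 gene, had 12002 and 14252 CPM. All 3 were higher in replicate 2 in CPM, as Mir652 was, but over a narrower range, and each range overlaps that of Mir652. The like direction and the overlap follow largely from picking the genes nearest in both libraries.

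Among microRNA genes in introns of protein-coding genes on the same strand, Mir744 was the third and Mir652 the sixth by mean level. There were 733 such genes, of which 354 had counts and 27 had 1000 CPM or more in both libraries. Mir139 in Pde2a and Mirlet7g in Wdr82 stood above Mir744, and Mirlet7e and Mir23b stood between Mir744 and Mir652. The intronic genes took 41.7% of the own-strand counts in replicate 1 and 41.4% in replicate 2. Mir744 gave 7.63% and 8.59% of these intronic counts in replicates 1 and 2, and Mir652 gave 2.37% and 4.24%. The median intronic gene was far lower, at 13.9 CPM over 226 genes with 10 or more counts, against 29.2 CPM over all 516 such genes.

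Between the libraries, both genes were lower in replicate 1. Mir652 had a log2 ratio of replicate 1 over replicate 2 of -0.87 (-0.89 to -0.85), and Mir744 one of -0.20 (-0.21 to -0.19). The comparison was an exact two-sided binomial test against edgeR's TMM library sizes with Benjamini-Hochberg adjustment over 516 genes. The adjusted p was 6.11e-294 for Mir744, while that of Mir652 was too small to be stored. The test compares these libraries, not conditions, and its p-values cover counting error and leave out variation between animals. At an adjusted p under 0.05, 27.5% of all genes tested were lower in replicate 1, 30.4% were higher and 57.9% differed in either direction. Of the 99 genes with a mean of 1000 CPM or more, 53 were called lower and 44 higher. Of the 20 most abundant genes, 14 were called lower and 6 higher. Neither being called nor the direction thus sets either gene apart.

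The sizes differ more than the calls do. Of the 99 genes with a mean of 1000 CPM or more, 16 had a larger absolute log2 ratio than Mir652 and 74 a larger one than Mir744, and the median was 0.48. Among the 20 most abundant genes, Mir652 at -0.87 and Mir132 at 0.83 were the ends of the range, and 14 exceeded Mir744 in absolute log2 ratio. Which gene had the largest absolute ratio turned on the scaling: over 6 alternative settings it was Mir132 in 4 and Mir652 in 1. In the 30 intronic genes with a mean of 1000 CPM or more, 8 exceeded Mir652 and 24 exceeded Mir744. In bulk tissue, fewer cells of a type and less RNA per cell cannot be told apart.

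**Figure D3:**
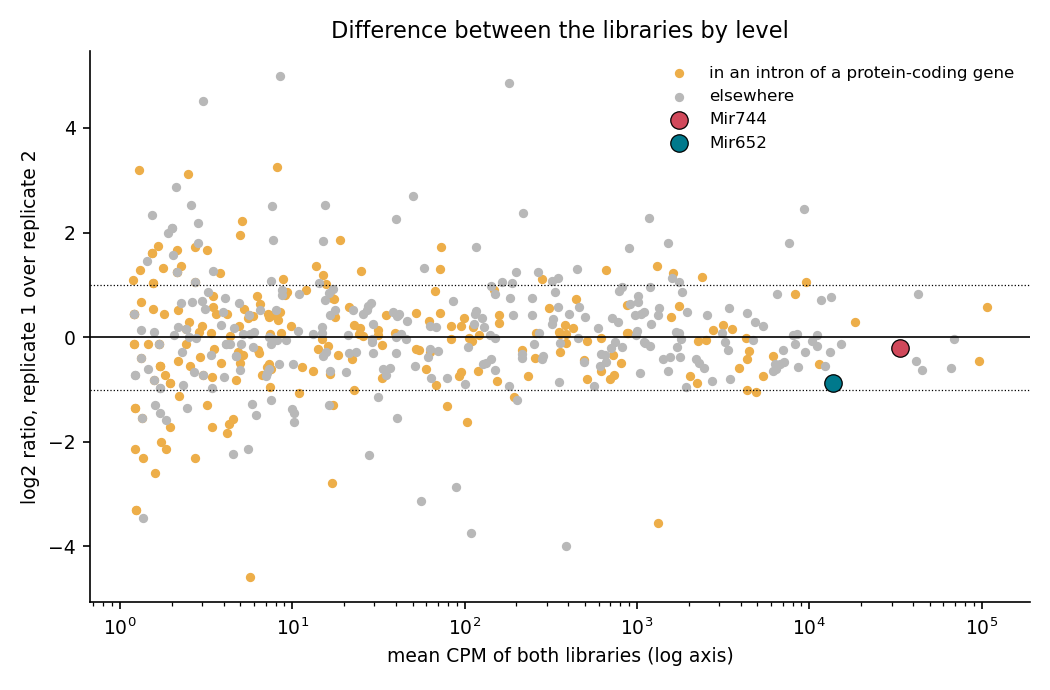
log2 ratio of replicate 1 over replicate 2 against mean CPM (log axis) for the 511 tested genes with counts in both libraries, with intronic genes in yellow and dotted lines at a change of 2-fold. Mir744 lies near the zero line at -0.20 and Mir652 below it at -0.87.

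Lists of markers of several cell types also differed between these libraries, and some lists held genes that moved both ways. The neuronal list summed to 85535 CPM in replicate 1 and to 53459 CPM in replicate 2. Mir132 alone gave 54937 and 30022 CPM of these sums. By the same test 5 neuronal genes were higher in replicate 1, while Mir138-1 and Mir138-2 were lower and Mir124a-2 was at 0. The oligodendrocyte list (5098 CPM in replicate 1 and 3543 CPM in replicate 2) had 2 of 3 genes higher and none lower. In the mural list (5178 and 7691 CPM) Mir143 was lower in replicate 1 and Mir145a higher. The epithelial list (138 and 386 CPM) had 4 of 5 genes lower and Mir200b higher. The red-cell list summed to 83.5 CPM in replicate 1 and to 794 CPM in replicate 2, with 2 of 3 genes lower and none higher. In the microglia and leukocyte list the sums were close (2164 and 1989 CPM) while its genes moved apart, with Mir150 and Mir223 higher and Mir146 lower. The endothelial list gave 11394 and 10799 CPM, with Mir126a higher and Mir126b at 0. The choroid plexus list gave 458 and 391 CPM, with 1 of 2 genes higher. The striated muscle list gave 80.5 and 29.9 CPM, with 4 of 8 genes higher and Mir133a-2 and Mir1a-1 at 0. The part of these differences in the Mir652 result was not tested. Reads with several mapping places are not in these counts, so a count of 0 does not show that a gene was silent.

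On the X chromosome Mir652 was the most abundant of 142 microRNA genes, 58 of which had counts. It gave 28.8% of the X-linked counts in replicate 1 and 36.7% in replicate 2. Next came Mir221, of the Mir221 and Mir222 cluster, at 6444 ± 1759 CPM, and Mir361, in an intron of the choroideremia gene Chm, at 4880 ± 2302 CPM (SD, n = 2). Both were lower in replicate 1 by the same test, with log2 ratios of -0.60 (-0.63 to -0.58) and -1.04 (-1.07 to -1.01). Mir98, in an intron of the ubiquitin ligase gene Huwe1, had a log2 ratio of -0.41 (-0.44 to -0.38), whereas its neighbour Mirlet7f-2 in the same host had one of 0.23 (0.19 to 0.27). Of 43 X-linked genes tested, 11 were lower and 14 higher in replicate 1, against 27.5% lower and 30.4% higher over all genes tested. The median log2 ratio was -0.01 on the X chromosome and 0.04 over all genes tested.

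On chromosome 11, Mir744 was the second most abundant of 137 microRNA genes, 71 of which had counts. Mir132, the most abundant, was higher in replicate 1 at 54937 CPM, against 30022 CPM in replicate 2, with a log2 ratio of 0.83 (0.82 to 0.84). Mir22, which is expressed in many tissues, had a log2 ratio of 2.45 (2.42 to 2.48). Both were thus higher in replicate 1, unlike Mir744. Mir744 gave 26.2% of the chromosome's counts in replicate 1 and 42.6% in replicate 2, while the chromosome took 12.2% and 8.36% of all own-strand counts in replicates 1 and 2. Of 38 chromosome 11 genes tested, 11 were lower and 9 higher in replicate 1, with a median log2 ratio of -0.18. Over all genes tested the median was 0.04, with 27.5% lower and 30.4% higher.

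**Figure D4:**
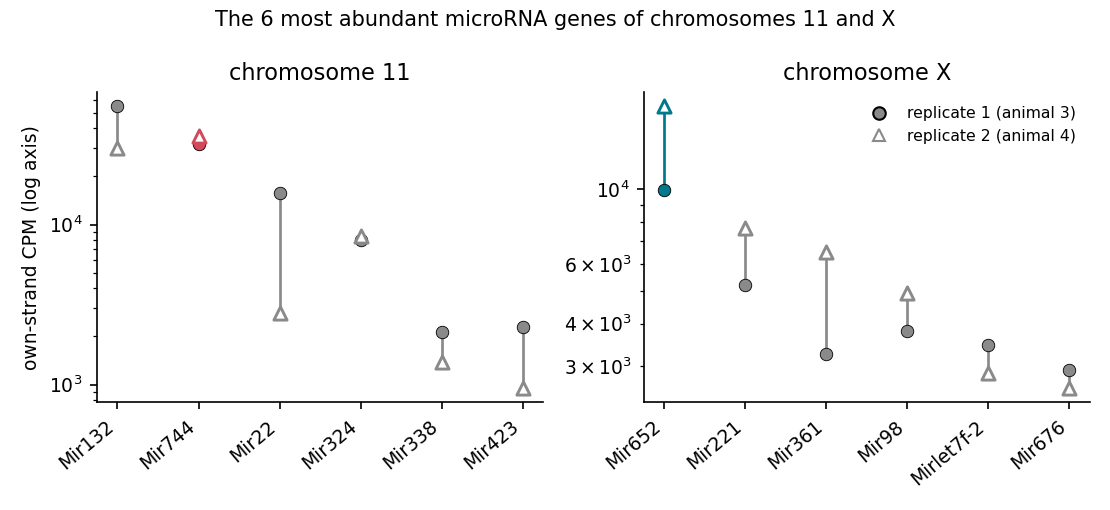
Own-strand CPM (log axis) of the 6 most abundant microRNA genes of chromosomes 11 (left) and X (right), with a filled circle for replicate 1 and an open triangle for replicate 2. On chromosome X the 4 most abundant genes, Mir652 first, were lower in replicate 1, while the next 2 were higher.

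In base composition and folding neither hairpin stood at the edge of the abundant genes. The Mir744 hairpin is 100 bases long with a GC content of 56.0%, and the Mir652 hairpin 98 bases with 50%. The median was 56.2% over the 20 most abundant genes and 52.9% over the 516 tested. The predicted folding energy was -44.8 kcal/mol for Mir744, or -0.45 per base, and -49.0 kcal/mol for Mir652, or -0.50 per base. The medians were -0.48 per base over the 20 most abundant genes and -0.43 per base over all tested. Among the tested genes, 42.4% had a lower energy per base than Mir744 and 20.3% a lower one than Mir652. The longest run of G was 4 bases in miR-744-5p, 1 in miR-744-3p, 5 in miR-652-5p and 3 in miR-652-3p. A run of 4 or more G (GGGG, read on the mature strand only) occurred in 11.2% of the distinct mature sequences.

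**Figure D5:**
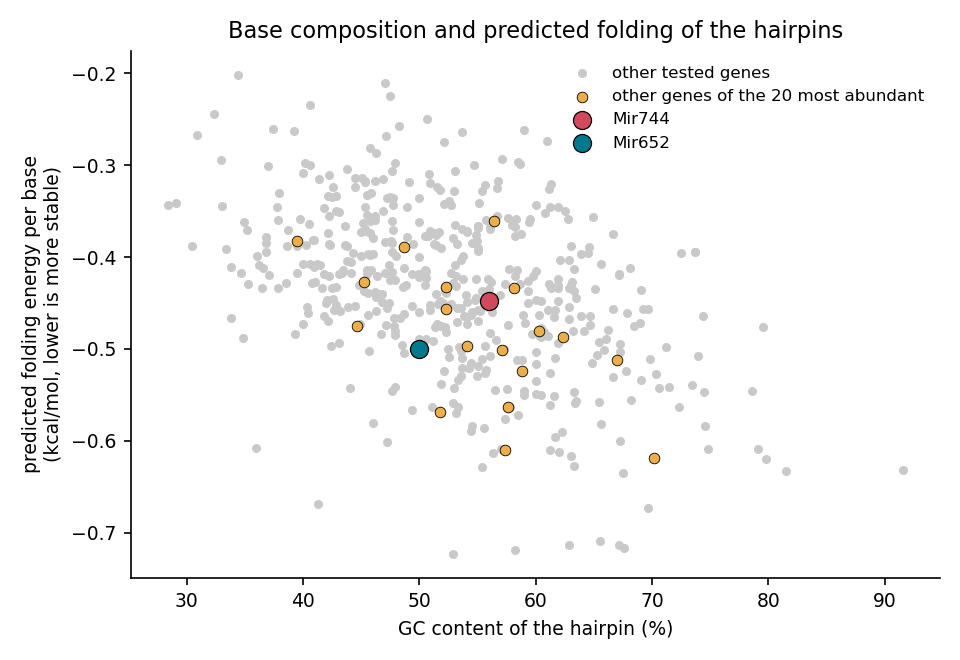
Predicted folding energy per base (kcal/mol) against GC content of the hairpin (%) for the 516 tested genes, with the 20 most abundant in yellow or in their own colour. Mir744 (56.0%, -0.45) and Mir652 (50%, -0.50) lie within the cloud.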

How the data were processed

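The authors deposited 1 table of raw read counts per microRNA gene for each library, mapped to mm10 with GENCODE M21, per the file lists that the authors supplied with each library. The sources used here do not give the aligner, counter, trimming or any molecular identifiers, and the labelled size of the RNA is under 30 bases. The 3 headerless count columns were read as unstranded, own-strand and opposite-strand counts from their layout, and the own-strand column was used. The 4 leading entries are not genes and were left out of library totals: unmapped reads were 16.7% and 20.9% of all reads in replicates 1 and 2, multi-mapped reads 42.8% and 39.9%, and reads outside microRNA genes 4.56% and 4.39%. No correction for sequence-dependent capture was applied here.

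All 2202 identifiers matched GENCODE M21, and 968 genes matched a RefSeq hairpin by symbol. Genes with 10 or more summed counts were tested with an exact binomial test against TMM sizes (edgeR 4.0.16, R 4.3.3). The test was run on counts simulated with counting error only, scaled by total counts. That run covers the calculation, not variation between animals or the TMM scaling. Alternatives tried were scaling by DESeq2 1.42.0, by total counts or by all reads, other minimum counts, unstranded counts and each library alone. Folding used RNAfold 2.7.2, the tests SciPy 1.17.1 in Python 3.11.15, and tables and figures pandas 2.3.3, NumPy 2.4.6 and Matplotlib 3.10.9. Named genes were the 20 most abundant, the 3 nearest in level to each gene, the 3 highest on each chromosome, the seed relatives and the leaders of the marker lists. Mirlet7f-2, Mir98, Mir1191, the Mir1906 genes and marker genes other than the leaders were named after their values were seen. The genes and lists were chosen with earlier results of these data known.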

Additional observations from a re-analysis of the deposited data

Results flagged for a closer look

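2 classes of mapped reads were deposited as totals and enter only the values that are set against all reads. Reads with several mapping places were 42.8% of the reads in replicate 1, against 39.9% in replicate 2. Uniquely mapped reads that hit no microRNA gene came to 4.56% in replicate 1 and to 4.39% in replicate 2. Whether any of them come from Mir744 or Mir652 cannot be read from the tables.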

How the results depend on the processing

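No paired analysis was possible because the libraries form 1 group. The log2 ratio stayed negative and past the threshold under 6 alternative scalings, minimum counts and count columns for both genes, from -0.24 to -0.11 for Mir744 and from -0.90 to -0.78 for Mir652. All reads as the total, chosen after seeing the data, gave the values nearest 0. Leaving out a library leaves no ratio to test. The counts of genes higher (157) and lower (142) in replicate 1 stayed within 1.5 times under all of them. The mean level of Mir744 was 36363 CPM with unstranded counts, 37738 CPM with the most abundant gene left out of the total and 11908 CPM with all reads as the total. For Mir652 all reads as the total gave 4837 CPM. These follow from the smaller or larger totals. With 1 library alone, Mir744 lay between 31833 and 35582 CPM, Mir652 between 9906 and 17583 CPM and the ratio of their counts between 2.02 and 3.21. The place of Mir652 was 23 without replicate 2 and 10 without replicate 1. Ranked among genes with no shared stretch of 20 or more bases, an alternative chosen after seeing the data, Mir744 stayed at place 8 and Mir652 took place 11. Of the 20 most abundant genes it left out only 1, Mir23b at place 10, so no other outcome was possible. Depth limits neither gene, but the number of libraries does, and the places hold among uniquely mapped reads only.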

Other observations

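The longest stretch of letters that an arm of Mir744 shares with an arm of Mir652 is GCCACUA, at bases 6 to 12 of miR-744-3p and 7 to 13 of miR-652-3p. Among 1674 distinct mature sequences these were the 2 that hold it (0.119%). It was found by comparing the arms and was not tested.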
